A study of Mus musculus with 12 samples.

Results

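The caveolins (Cav1, Cav2 and Cav3), the cavins (Cavin1 to Cavin4) and the pacsins (Pacsin1 to Pacsin3) are the coat and neck proteins of caveolae. These 10 genes were taken by name from a table of 23586 genes, and all 10 passed the filter that left 14580 genes for testing. The families were chosen by measured differences in these libraries, that of Cavin2 between the GFP-negative groups and those of Pacsin1 in both plasmid-label comparisons, so these 3 differences are given as a description with no test. The libraries were made from cultured mouse muscle stem cells, the resident stem cells of skeletal muscle, and the comparisons address what a plasmid carrying Six2 changes in cells with and without Pax3 reporter signal. SIX2 is a homeobox transcription factor, and PAX3 is a paired-box factor of the myogenic lineage. All 12 libraries carried the Pax3nLacZ-IRES-GFP genotype, in which GFP reports on the Pax3 locus. The cells were sorted as GFP-positive or GFP-negative, and each sort was transfected with 2 µg of pCR3-Six2, which holds the mouse Six2 cDNA, or of empty pCR3. The resulting 4 groups, GFP-negative control, GFP-negative SIX2, GFP-positive control and GFP-positive SIX2, had 3 libraries each. All cells were grown in 20% FCS with 4 ng/mL basic FGF, transfected with Lipofectamine LTX, and collected at no fewer than 50000 cells per library. The labels used here give no age, sex or muscle of origin. Nor do they state that the 3 libraries of a group stem from different animals or dishes. The p-values therefore describe the spread among these particular libraries, and that spread may be technical.

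Caveolae are small flask-shaped pits of the plasma membrane that buffer membrane tension, take up lipids and organise signalling. Caveolins are hairpin membrane proteins that bind cholesterol; CAV1 and CAV2 form caveolae in many cell types, and CAV3 forms those of muscle. Cavins are cytosolic coat proteins: CAVIN1 is needed for caveola formation, CAVIN2 shapes the pit, CAVIN3 binds CAV1, and CAVIN4 is the muscle cavin. Pacsins, also called syndapins, are F-BAR proteins that bend membranes and bring dynamin and actin regulators to necks and endocytic pits; PACSIN1 is best known from neurons, PACSIN2 is widespread, and PACSIN3 is found mainly in muscle.

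Values are normalized counts, which are reads divided by the authors' size factor for each library. Libraries held 12438885 to 47299937 reads, so that a single read stood for between 0.554 and 2.14 normalized counts. The 3 GFP-positive SIX2 libraries, with 12632428 to 15492340 reads, were shallower than the 3 GFP-positive controls, with 31295165 to 47299937 reads. Depth and plasmid label therefore cannot be told apart in that pair of groups. The GFP-negative SIX2 libraries, with 34048869 to 40182810 reads, were deeper than the GFP-negative controls, with 12438885 to 33151990 reads. In the GFP-negative sort, too, depth and plasmid label cannot be told apart. Every GFP-negative SIX2 library was also deeper than every GFP-positive SIX2 library. Depth thus cannot be told apart from the GFP label among SIX2-labelled libraries, nor from the difference between the sorts' plasmid-label differences. Six2 itself was read only 2 to 36 times per library. Its normalized counts were 4.28, 15.9 and 24.4 in controls against 22.85, 23.7 and 19.25 with the SIX2 label in the GFP-negative sort, and 5.355, 13.3 and 3.375 against 28.6, 23.4 and 6.51 in the GFP-positive sort. The groups overlapped within both sorts, so Six2 reads do not check the plasmid labels, and Pax3 averaged 71.4 in GFP-negative and 72.2 in GFP-positive controls, so Pax3 does not check the sort. Pax3 was lower with the SIX2 label in both sorts, at 13.8 to 19.3 against 68.2 to 73.2 in GFP-negative controls (−2.06 ± 0.41, limma adjusted p = 0.0022) and at 3.90 to 14.65 against 59.9 to 94.1 in GFP-positive controls (−2.82 ± 0.41, limma adjusted p = 0.00029). Pax3 had only 23 to 27 reads in the GFP-negative SIX2 libraries and 2 to 9 in the GFP-positive SIX2 libraries. Group names below are therefore the labels. The myoblast genes Des (97424 to 183827) and Myod1 (14410 to 19017) were high in every library. Pax7, the stem cell factor, ranged from 82.5 to 184. Des was lower with the SIX2 label in each sort (97424 to 113013 against 152872 to 183827, 129818.5 to 143462 against 154358 to 176690). Pax7 was higher (161 to 164 against 82.5 to 148, 159 to 184 against 85.2 to 109). Of 14 myoblast identity genes, limma called 5 higher and 5 lower in the GFP-negative sort. In the GFP-positive sort it called 6 higher and 3 lower. Of all genes, 27.9% and 23.3% were called.

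Cav1 and Cav2 are neighbours on chromosome 6, both on the plus strand, and 17.2 kb separate the end of Cav2 from the start of Cav1. The RefSeq promoter table, on GRCm38.p6, matched 9 of the 10 members with 14 promoter windows of 250 bases before a start. The Cavin1 windows, chr11:100970616-100970865 and chr11:100970618-100970867, are nearly the same bases but are counted separately. They and the Pacsin3 window chr2:91256563-91256812 lie wholly inside annotated exons of their own genes. An E-box (CANNTG, the letters bound by myogenic helix-loop-helix factors) on either strand was found in 9 of these 14 windows, against 66.2% of 32851 windows in the table. The MEF3 core TCAGGTT, a letter run known for binding factors of the SIX2 family, was found in 0 of 14, against 3.49% of all windows. A run of CTA and TAG with any 4 bases between them was found in 3 of 14, against 3.2%. All 3 matches held a G or C among these 4 bases, so they are not named as MEF2 sites. Both strands were searched. Each match is a description of letters in the window. The windows of Cav2 and Cav1 are shown because both genes rose with the SIX2 label in both sorts, and capitals mark E-boxes.
Cav2, chr6:17280935-17281184, plus strand: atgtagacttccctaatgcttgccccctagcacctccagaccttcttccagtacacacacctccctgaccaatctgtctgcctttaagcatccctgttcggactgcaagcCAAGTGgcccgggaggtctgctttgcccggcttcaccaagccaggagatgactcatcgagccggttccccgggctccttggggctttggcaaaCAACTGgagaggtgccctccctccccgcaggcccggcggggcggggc
Cav1, chr6:17306085-17306334, plus strand: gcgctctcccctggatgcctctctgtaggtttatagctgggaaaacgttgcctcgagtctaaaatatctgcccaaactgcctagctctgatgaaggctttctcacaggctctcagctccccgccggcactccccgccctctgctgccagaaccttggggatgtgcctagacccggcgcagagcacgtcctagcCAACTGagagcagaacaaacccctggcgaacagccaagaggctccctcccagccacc

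Transcripts of both genes were higher in the SIX2-labelled libraries of each sort. Cav1 (chr6:17306335-17341452) read 1493, 1216 and 1091 in the GFP-negative controls and 2060.5, 2282 and 2653 in the SIX2 libraries of that sort. Among GFP-positive cells it read 866, 769 and 703 in controls and 1745, 1746 and 1449 in SIX2 libraries. Every SIX2 library lay above every control of its own sort, and the GFP-positive controls were the lowest of all groups. Cav1 rose by 0.88 ± 0.13 on the log2 scale (SE, limma adjusted p = 0.000253) in the GFP-negative sort and by 1.08 ± 0.13 (limma adjusted p = 6.65e-05) in the GFP-positive sort.

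Cav2 (chr6:17281185-17289115), which pairs with CAV1 in mixed oligomers, was the less abundant of the 2 per kilobase of exon in every group. It read 195, 205 and 187 in controls and 297, 271 and 352.5 with the SIX2 label among GFP-negative cells. Among GFP-positive cells it read 107, 119.5 and 123 in controls and 255.5, 238 and 164.5 with the label. Within each sort the groups did not overlap. Cav2 rose by 0.64 ± 0.17 (limma adjusted p = 0.015) in the GFP-negative sort, and this call was lost without GFP-negative SIX2 replicate 3 (0.53, limma adjusted p = 0.068). In the GFP-positive sort it rose by 0.88 ± 0.17 (limma adjusted p = 0.00264).

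Cav3 (chr6:112459505-112472872), the muscle caveolin, went the other way in the GFP-negative sort. Its window is shown as a contrast to those of Cav1 and Cav2, with E-boxes in capitals.
Cav3, chr6:112459255-112459504, plus strand: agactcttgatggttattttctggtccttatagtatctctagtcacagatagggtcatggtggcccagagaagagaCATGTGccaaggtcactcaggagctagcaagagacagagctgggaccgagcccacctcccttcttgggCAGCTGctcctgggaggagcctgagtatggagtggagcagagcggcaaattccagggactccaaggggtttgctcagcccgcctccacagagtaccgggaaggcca
Cav3 read 9476, 9140.1 and 9940.2 in GFP-negative controls and 7122, 7547 and 7069 in the SIX2 libraries of that sort. Among GFP-positive cells, controls read 9063, 8678 and 9291 and SIX2 libraries 8626.5, 8320.4 and 8714. The GFP-negative groups were apart, and the GFP-positive groups overlapped. Cav3 fell by 0.39 ± 0.05 (limma adjusted p = 0.000161) in the GFP-negative sort, while in the GFP-positive sort its difference of −0.07 ± 0.05 did not pass (limma adjusted p = 0.36). The difference between these 2 differences was 0.32 ± 0.08 (limma adjusted p = 0.0995), so a difference between the sorts was not called, although DESeq2 on the recovered reads called it (adjusted p = 0.0104).

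**Figure D1:**
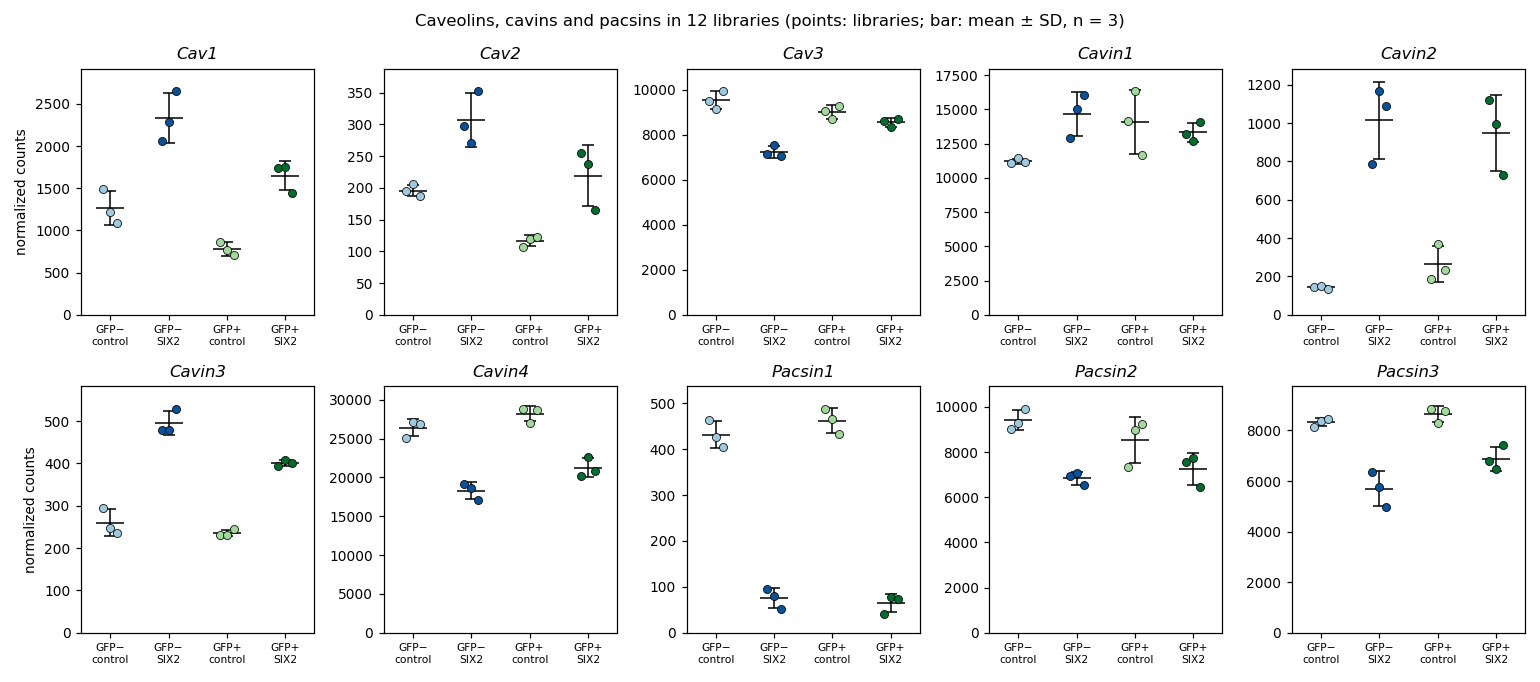
Normalized counts of the 10 genes (y axis, linear, from 0, with its own range in each panel) in the 4 groups of 3 libraries (x axis). Points are libraries, and the bar and whiskers are the mean ± SD. Cav1, Cav2, Cavin2 and Cavin3 stand higher in the SIX2 groups of both sorts, and Pacsin1, Cavin4 and Pacsin3 stand lower.

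Among the cavins, Cavin1 and the muscle cavin Cavin4 were the most abundant per kilobase of exon, and Cavin2 differed the most between groups. Cavin2 (chr1:51289126-51302960), also known as SDPR, lies on the plus strand. Its window held no E-box and 1 run of CTA and TAG, in capitals, 150 bases before the start.
Cavin2, chr1:51288876-51289125, plus strand: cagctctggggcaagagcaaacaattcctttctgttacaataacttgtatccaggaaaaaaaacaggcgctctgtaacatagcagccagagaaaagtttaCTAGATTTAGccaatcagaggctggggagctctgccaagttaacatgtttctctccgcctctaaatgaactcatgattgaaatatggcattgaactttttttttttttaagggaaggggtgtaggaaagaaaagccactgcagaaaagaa
Cavin2 read 146, 148 and 134 in the GFP-negative controls and 786, 1168 and 1087.5 in the GFP-negative SIX2 libraries. Each SIX2 library lay far above the highest control. This difference, 2.80 ± 0.23 on the log2 scale or 6.97-fold, is one of the values the families were chosen by, and it is given without a test. The GFP-positive libraries, which that choice did not use for Cavin2, read 189, 369 and 236 in controls and 1122, 996 and 731 in SIX2 libraries. Cavin2 rose there by 1.87 ± 0.23, or 3.66-fold (limma adjusted p = 6.89e-05). The control groups were also apart, with GFP-positive controls higher. The difference between the plasmid-label differences of the sorts, −0.93 ± 0.32, contains the GFP-negative value the choice used and is given without a test.

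Cavin3 (chr7:105480083-105482300, minus strand), also named PRKCDBP, rose in both sorts of cells. It read 296, 247 and 236 in controls and 478, 479 and 529 with the SIX2 label among GFP-negative cells. Among GFP-positive cells it read 231, 231 and 244 in controls and 393, 407 and 400.5 with the label. No SIX2 library overlapped a control library. Cavin3 rose by 0.93 ± 0.11 (limma adjusted p = 6.97e-05) and 0.76 ± 0.11 (limma adjusted p = 0.000367). Its exons overlap Gm45667 on the opposite strand over 374 bases, and that gene was listed at 0 to 3.01 normalized counts. Since the described library preparation is not stranded, reads of the 2 genes cannot be told apart there.

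Cavin1 (chr11:100956733-100970887, minus strand), also called PTRF, showed no common pattern across sorts. It read 11108, 11426 and 11131.5 in controls and 12908, 15022 and 16073 with the SIX2 label among GFP-negative cells. Among GFP-positive cells it read 14151, 16343 and 11693 in controls and 13210.3, 12675.5 and 14073 with the label. The GFP-negative groups were apart and the GFP-positive groups overlapped. Cavin1 rose by 0.38 ± 0.10 in the GFP-negative sort (limma adjusted p = 0.0148), a call that was lost without GFP-negative SIX2 replicate 2 (0.36, limma adjusted p = 0.0529) or replicate 3 (0.31, limma adjusted p = 0.0666). In the GFP-positive sort its difference was −0.07 ± 0.10 (limma adjusted p = 0.703), and without GFP-positive control replicate 2 it was 0.05.

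Cavin4 (chr4:48663514-48673502, plus strand), also called MURC, was lower in the SIX2 libraries of both sorts. Its window is shown because it is the most abundant member per kilobase, and it held 1 E-box, in capitals.
Cavin4, chr4:48663264-48663513, plus strand: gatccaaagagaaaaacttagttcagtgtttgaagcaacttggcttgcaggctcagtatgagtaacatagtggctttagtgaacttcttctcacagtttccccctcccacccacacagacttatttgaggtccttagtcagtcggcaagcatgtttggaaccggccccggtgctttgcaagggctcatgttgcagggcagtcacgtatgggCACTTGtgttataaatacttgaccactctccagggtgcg
Cavin4 read 25109, 27159.6 and 26899.6 in GFP-negative controls and 19196, 18611 and 17128 in GFP-negative SIX2 libraries. The GFP-positive controls read 28834, 27074.5 and 28732, and the GFP-positive SIX2 libraries 20229, 22650.3 and 20879. All SIX2 libraries lay below all controls. Cavin4 fell by 0.53 ± 0.06 (limma adjusted p = 5.08e-05) and by 0.41 ± 0.06 (limma adjusted p = 0.000361).

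The pacsins were lower with the SIX2 label, or did not pass. Pacsin1 (chr17:27655509-27711482, plus strand) had the largest differences among them. The RefSeq window below lies before a start inside the GENCODE gene, is cut to the 192 bases outside annotated exons, and held none of the 3 letter runs.
Pacsin1, chr17:27684989-27685180, plus strand: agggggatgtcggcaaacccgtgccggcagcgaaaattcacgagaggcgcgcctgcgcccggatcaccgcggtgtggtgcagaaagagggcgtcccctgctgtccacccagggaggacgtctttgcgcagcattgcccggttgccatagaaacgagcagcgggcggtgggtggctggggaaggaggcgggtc
Pacsin1 read 463, 426.5 and 404 in the GFP-negative controls and 94.25, 80.4 and 52.3 in the GFP-negative SIX2 libraries. It read 488, 466 and 434 in the GFP-positive controls and 41.1, 77.9 and 73.3 in the GFP-positive SIX2 libraries. Every control lay far above the highest SIX2 library, and the SIX2 libraries held only 23 to 132 reads of the gene. The differences, −2.53 ± 0.25 and −2.88 ± 0.25 on the log2 scale, are the other values behind the choice of families and are given without a test.

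Pacsin3 (chr2:91255954-91264679, plus strand), the muscle form, read 8142, 8383 and 8464 in controls and 6361, 5758 and 4966 with the SIX2 label among GFP-negative cells. Among GFP-positive cells it read 8855, 8291 and 8782 in controls and 6777.5, 6477 and 7407 with the label. No SIX2 library reached a control. Pacsin3 fell by 0.56 ± 0.08 (limma adjusted p = 0.000237) and by 0.33 ± 0.08 (limma adjusted p = 0.00965). Its exons share 42 bases with the antisense Gm17281.

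Pacsin2 (chr15:83375607-83464606, minus strand), the widespread form, read 9041, 9305 and 9914 in controls and 6949.9, 7066 and 6526 with the SIX2 label among GFP-negative cells. Among GFP-positive cells it read 7358, 8956 and 9264 in controls and 7569, 7757 and 6433 with the label. The GFP-negative groups were apart, and the GFP-positive groups overlapped through control replicate 1. Pacsin2 fell by 0.46 ± 0.09 (limma adjusted p = 0.00194) in the GFP-negative sort. Its GFP-positive difference was −0.23 ± 0.09 (limma adjusted p = 0.0817), which without GFP-positive control replicate 1 was −0.33 (limma adjusted p = 0.0138).

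In all, leaving out Cavin2 and Pacsin1, 4 of the 8 other members rose and 4 fell in the GFP-negative sort, where 27.9% of all genes were called, 13.6% as higher and 14.3% as lower. Those that rose were Cav1, Cav2, Cavin1 and Cavin3, and those that fell were Cav3, Cavin4, Pacsin2 and Pacsin3. In the GFP-positive sort, leaving out Pacsin1, 4 of 9 rose (Cav1, Cav2, Cavin2 and Cavin3), 2 fell (Cavin4 and Pacsin3) and 3 did not pass (Cav3, Cavin1 and Pacsin2), where 23.3% of all genes were called, 12.1% as higher and 11.2% as lower. With the same members left out, 4 were higher and 4 lower without overlap in the GFP-negative sort, as were 22.8% and 23.5% of all genes, and 4 were higher and 2 lower in the GFP-positive sort, as were 18.7% and 18.1%. edgeR and DESeq2 on the recovered reads called the same numbers, 8 and 6. The members were chosen with results of these data known, so nothing particular to the families follows from these counts. The 6 GFP-positive calls were kept under every alternative tried, including reads thinned to the smallest library. In the difference between the sorts' plasmid-label differences, limma called 0 of the 8 members other than Cavin2 and Pacsin1 and 0.0% of all genes. At an unadjusted limma p under 0.05 were 2 of these members and 2437 of all 14580 tested genes. Of these members, edgeR called 0 and DESeq2 called Cav3.

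**Figure D2:**
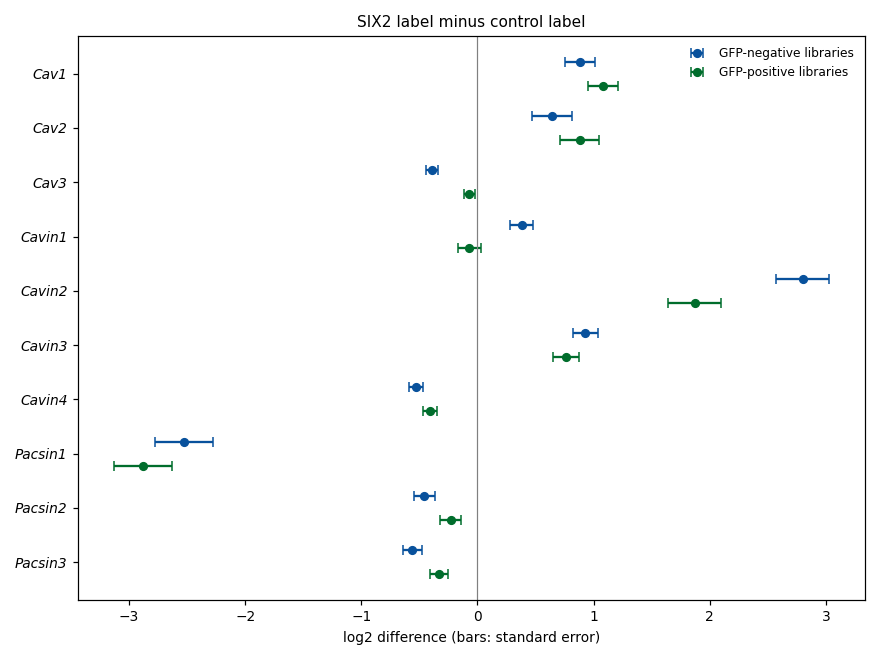
log2 differences, SIX2 label minus control label, of the 10 genes in GFP-negative and GFP-positive libraries (points; bars, standard error). Cavin2 lies at 2.80 and 1.87 and Pacsin1 at −2.53 and −2.88, while the other 8 genes lie between −0.56 and 1.08.

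The GFP label was then compared within each plasmid label, with the same libraries as above. Among control-labelled libraries, the ubiquitous caveolins were lower in GFP-positive cells, and no other member passed. Cav1 fell by 0.69 ± 0.13 (limma adjusted p = 0.0149) and Cav2 by 0.74 ± 0.17 (limma adjusted p = 0.0364), so 2 of 10 members were called where 3.48% of all genes were, 0.919% as higher and 2.56% as lower. The Cav1 call was lost without GFP-negative control replicate 1 (−0.57, limma adjusted p = 0.0779). The Cav2 call was lost without any of GFP-negative control replicates 1 to 3, GFP-positive control replicate 1 or 2, or GFP-negative SIX2 replicate 2 (limma adjusted p from 0.051 to 0.137), as well as with a replicate block (0.0715) or with no filter (0.0516). Cavin1, at 0.31 ± 0.10 (limma adjusted p = 0.114), was apart between the groups and higher in GFP-positive libraries, but did not pass. DESeq2 called it (0.33, adjusted p = 0.0404). Cavin2, at 0.83 ± 0.23, was also apart and higher. That difference contains the GFP-negative control values the choice used, so it is given without a test. With Cav1 and Cav2, 2 members were higher and 2 lower without overlap, as were 13.0% and 14.1% of all genes. The counts over 10 members include Cavin2 and Pacsin1, whose control values the choice used.

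Among SIX2-labelled libraries, limma called 0 of 10 members for the GFP label, with 6 members at an unadjusted p under 0.05. Of all 14580 tested genes, 1893 were at an unadjusted limma p under 0.05. After adjustment limma called 0.192% of all genes (0.0137% higher and 0.178% lower). The 10 include Cavin2 and Pacsin1, whose SIX2-labelled values the choice used. These groups also differed in depth. edgeR called 0 and DESeq2 called Cav1 (−0.50, adjusted p = 0.0164) and Cav3 (0.24, adjusted p = 0.00913). Cav3 (0.24 ± 0.05, limma adjusted p = 0.0936), Cavin4 (0.21 ± 0.06, limma adjusted p = 0.16) and Pacsin3 (0.28, limma adjusted p = 0.166) were higher in GFP-positive libraries without overlap. Cav1 (−0.50, limma adjusted p = 0.129), Cav2 (−0.50, limma adjusted p = 0.251) and Cavin3 (−0.30, limma adjusted p = 0.275) were lower without overlap, and 9.05% and 8.16% of all genes were apart as higher and lower.

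**Figure D3:**
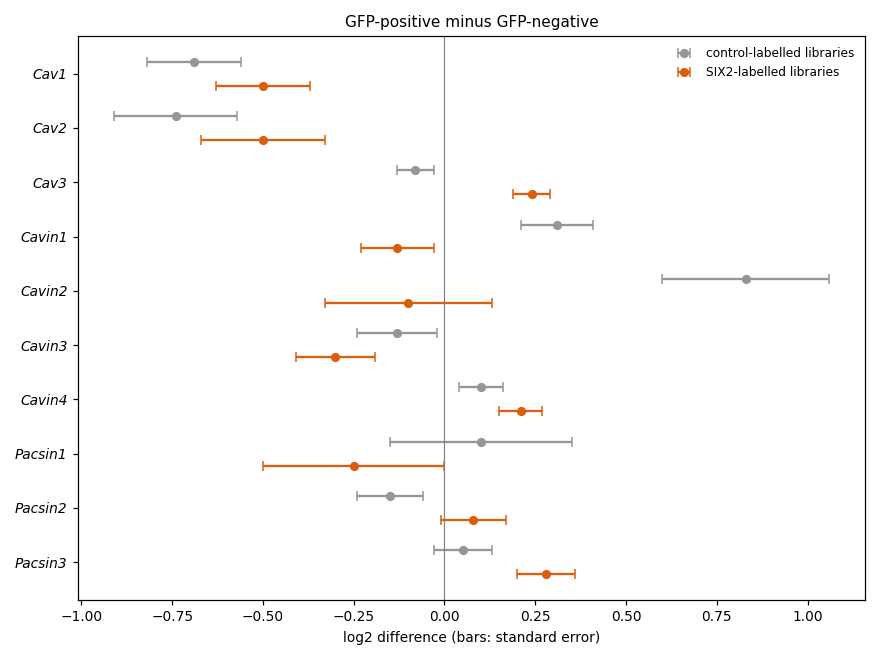
log2 differences, GFP-positive minus GFP-negative, of the 10 genes in control-labelled and SIX2-labelled libraries (points; bars, standard error). Cav1 and Cav2 lie at −0.69 and −0.74 in controls, and Cavin2 lies at 0.83 in controls and −0.10 with the SIX2 label.

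Per kilobase of exon, Cavin4 was the highest member in every group (12848, 8915, 13736 and 10347 normalized counts per kb in GFP-negative control, GFP-negative SIX2, GFP-positive control and GFP-positive SIX2), followed by Cav3 and Cavin1. Pacsin2 and Pacsin3 came next and overlapped in all groups but the GFP-positive controls. Cav1 came next after them in each group. The lowest place passed from Cavin2 (46.7 per kb) in the GFP-negative controls and from Cav2 (35.0 per kb) in the GFP-positive controls to Pacsin1 in both SIX2 groups (11.6 and 9.82 per kb).

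As a share of the summed per-kb level of its family, Cav1 made up 4.26% ± 0.73 (SD, n = 3) of caveolin transcripts in GFP-negative controls and 9.63% ± 1.22 with the SIX2 label. In the GFP-positive sort it made up 2.81% ± 0.32 and 6.03% ± 0.676. Cav3 supplied most of the rest, between 89.1% and 96.8% on average. Cavin2 went from 0.289% to 2.43% of cavin transcripts in the GFP-negative sort and from 0.485% to 2.13% in the GFP-positive sort, while Cavin4 went from 79.4% to 65.4% and from 76.8% to 70.8%. In all groups the muscle members Cav3 and Cavin4 remained the largest part of their families.

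**Figure D4:**
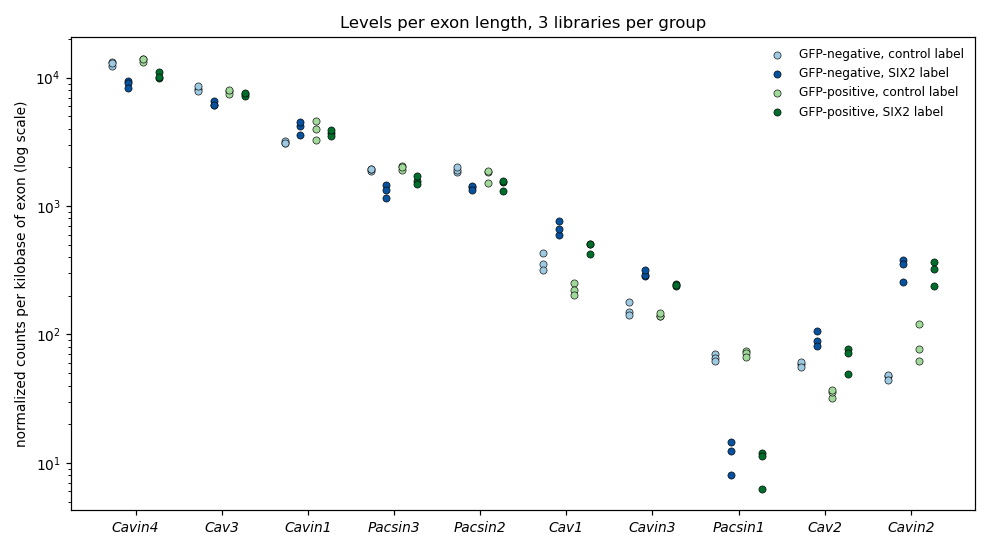
Levels of the 10 genes per kilobase of exon (log axis, normalized counts per kb) in the 4 groups (points: libraries). Cavin4 and Cav3 stand at the top of each group, and Pacsin1 stands at 66.1 and 70.9 per kb in the control groups and at 11.6 and 9.82 in the SIX2 groups.

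The caveola neck and accessory proteins, 16 genes of which 15 were tested, moved in both directions with the SIX2 label. In the GFP-negative sort 3 rose and 4 fell, and in the GFP-positive sort 3 rose and 2 fell. Over all genes, 27.9% and 23.3% were called. Ehd2, an ATPase that rings the caveola neck, rose from 597.5 ± 111 to 1152 ± 103 (0.96 ± 0.13, limma adjusted p = 0.00016) and from 494 ± 23.4 to 926 ± 98.2 (0.90 ± 0.13, limma adjusted p = 0.000318). Flna, the actin crosslinker filamin A that tethers caveolae, rose by 0.96 ± 0.14 (limma adjusted p = 0.00028) and 1.27 ± 0.14 (limma adjusted p = 4.13e-05). Cd36, a fatty acid transporter found in caveolae, fell by 1.54 ± 0.18 (limma adjusted p = 5.41e-05) and 1.66 ± 0.18 (limma adjusted p = 3.21e-05). Ehd4, a relative of Ehd2, fell by 0.24 and 0.28 (limma adjusted p = 0.0119 and 0.00515). Ehd1 fell by 0.51 (limma adjusted p = 0.00251) in the GFP-negative sort. The rises of Ehd3 (0.54, GFP-negative sort, limma adjusted p = 0.0461) and Flot2 (0.33, GFP-positive sort, limma adjusted p = 0.0284) lost their call in 9 and 5 of 22 alternatives. The medians of the list, −0.16 and 0.03, lay beside 0.005 and −0.007 for all genes.

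**Figure D5:**
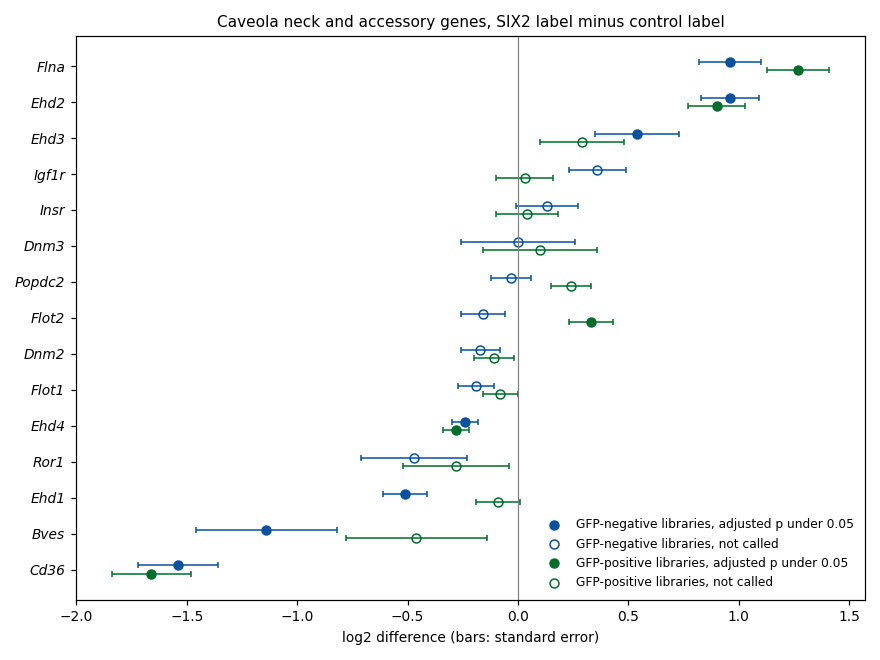
log2 differences, SIX2 label minus control label, of the 15 tested caveola neck and accessory genes in GFP-negative and GFP-positive libraries (bars, standard error; filled points, limma adjusted p under 0.05). Flna and Ehd2 lie highest, at 0.96 to 1.27 and 0.90 to 0.96, and Cd36 lies lowest, at −1.54 and −1.66.

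Of 16 tested F-BAR relatives of the pacsins, 1 rose and 3 fell in each sort. Srgap1 fell by 0.85 ± 0.14 (limma adjusted p = 0.000565) and 0.90 ± 0.14 (limma adjusted p = 0.000483), and Srgap2 and Pstpip2 fell in both sorts. The gene that rose was Fnbp1l in the GFP-negative sort (0.58 ± 0.14, limma adjusted p = 0.00651). In the GFP-positive sort it was Pstpip1 (0.45 ± 0.12, limma adjusted p = 0.0174), whose call was lost in 6 of 22 alternatives. Of 15 tested pacsin partners in endocytosis and actin assembly, 2 rose and 4 fell in the GFP-negative sort. In the GFP-positive sort 2 rose and 3 fell. The partners share their Ehd and Dnm genes with the neck and accessory list above, so calls such as those of Ehd2 and Ehd4 count in both. Micall1, which binds PACSIN2 on recycling tubules, fell by 0.43 ± 0.09 (limma adjusted p = 0.0038) and 0.39 ± 0.09 (limma adjusted p = 0.00847). The medians of these lists were −0.14 and −0.07 for the relatives and −0.17 and −0.11 for the partners. All genes had medians of 0.005 and −0.007, and 27.9% and 23.3% of them were called.

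Of 26 muscle differentiation genes, 22 fell and 0 rose in the GFP-negative sort by limma. In the GFP-positive sort 21 fell and 1 rose, and the medians were −0.46 and −0.44. All genes had medians of 0.005 and −0.007, and 14.3% and 11.2% of them were called as lower. Tnnt1, the slow troponin T, fell by 0.69 ± 0.06 (limma adjusted p = 8.74e-06) and 0.67 ± 0.06 (limma adjusted p = 1.02e-05), and Mymx, a fusion protein, fell by 0.83 and 0.88 (limma adjusted p = 7.56e-06 and 4.87e-06). Atp2a1, the fast calcium pump, was the gene that rose, by 0.48 ± 0.08 (limma adjusted p = 0.000922). Cavin4 and Pacsin3 fell in both sorts and Cav3 in the GFP-negative sort. The part of the list's shift in the values of these members was not tested, and in bulk libraries fewer cells of a type and less RNA per cell cannot be told apart.

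Markers of other cell types, several of which express caveolins and cavins, were taken from lists. Of 12 endothelial markers, 11 had an entry and 5 (Cdh5, Kdr, Cldn5, Esam and Flt1) stayed under 10 in every library. Summed endothelial levels were 111.0 to 163 in GFP-negative controls, 72.2 to 138 in GFP-negative SIX2, 124.5 to 153 in GFP-positive controls and 104 to 161 in GFP-positive SIX2 libraries, so the ranges of the groups within each sort overlapped. Of 3 tested endothelial genes, 0 rose and 1 fell in the GFP-negative sort, and 1 rose and 1 fell in the GFP-positive sort. Vwf was 61.0 to 109 in GFP-negative controls and 16.8 to 30.7 with the label, and 64.1 to 110 and 29.2 to 51.8 among GFP-positive cells. Egfl7 was 16.1 to 19.4 in controls and 45.6 to 89.3 with the label among GFP-positive cells. Among GFP-negative cells its ranges overlapped, at 21.6 to 45.0 and 31.3 to 65.2. Over all genes, 27.9% and 23.3% were called, here and for the lists below. Of 8 adipocyte markers, Adipoq, Plin1, Cidec, Lep and Cfd had no entry and Fabp4 stayed under 10. The sums of the 3 with an entry were 578 to 627.5 and 651 to 678.5 in the control groups. In the SIX2 groups they were 299 to 373 and 273 to 384. Pparg made up most of these sums, at 529 to 570 and 600.5 to 639.5 in controls. With the SIX2 label it was 291 to 352 and 245 to 349. Of 2 tested genes of that list, 0 rose and 1, Pparg, fell in each sort by limma. Fibro-adipogenic sums were 3401 to 3791 against 3393.5 to 3799 in the GFP-negative sort and 2772 to 3267 against 2974 to 3180 in the GFP-positive sort, with Dcn, Col15a1 and Pi16 under 10 in every library. Of 5 tested genes of that list, 2 rose and 0 fell in each sort by limma, while Gsn made up most of the sums. Ly6a rose by 1.75 (limma adjusted p = 0.00859) and 2.36 (limma adjusted p = 0.00157), and Smoc2 by 2.14 (limma adjusted p = 0.000169) and 1.22 (limma adjusted p = 0.00927).

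Smooth muscle and pericyte sums were 50532 to 60835 over all libraries, with Myh11 under 10 in each, and Acta2, which ranged from 46997 to 57657, made up most of them. Of 8 tested genes of the list, 3 rose and 2 fell with the SIX2 label in the GFP-negative sort, and 3 rose and 1 fell in the GFP-positive sort. Notch3 was 73.7 to 137 in controls and 207.5 to 352 with the label among GFP-negative cells, and 84.1 to 105 and 239 to 314 among GFP-positive cells, and rose by 1.41 and 1.51 (limma adjusted p = 0.000675 and 0.000522). Cnn1 rose by 1.82 in the GFP-negative sort (limma adjusted p = 0.0072), and Mcam by 1.12 in the GFP-positive sort (limma adjusted p = 0.00323). Cspg4 fell by 0.78 and 0.84 (limma adjusted p = 0.00593 and 0.00448). Of 4 tested immune markers, 1 rose and 0 fell with the SIX2 label in each sort by limma. Of 4 tested Schwann and neural markers, 0 rose and 1 fell in each sort. Some genes of these lists thus rose with the label as Cav1, Cav2, Cavin2 and Cavin3 did, and others, Vwf and Cspg4 among them, were lower. The part of these list genes in the values of those members was not tested. These marker genes were named after their values were seen.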

How the data were processed

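The 12 libraries were made by SMART-Seq2 and Tn5 tagmentation, per the labels' protocols. The submitters' processing notes name STAR 2.7.11a, RSEM 1.3.3, FastQC 0.12.1, MultiQC 1.19, DESeq2 1.42.0 and the GRCm38 build. The authors deposited 1 table of normalized counts, a signal that is the read count divided by a size factor. Whole reads were recovered from it, 100.0% of values being whole within 0.0001.

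Values were taken as log2(value + 1), genes with at least 10 in at least 3 libraries were kept, and limma 3.58.1 (empirical Bayes with a trend, R 4.3.3, all groups in one fit) gave differences, standard errors and Benjamini-Hochberg adjusted p-values over 14580 genes, with a threshold of 0.05. Fold changes on this scale understate low genes. edgeR 4.0.16 and DESeq2 1.42.0 on recovered reads were alternatives, as were the pseudocount, filter, scaling, replicate block, leaving out each library, and, chosen after seeing the data, thinning. Replicate libraries differed by more than sampling noise (chi-square per degree of freedom 7.18 to 45.28). The limma script was tested on simulated data.

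The members and gene lists were chosen with earlier results of these data known. Named genes were all members, Six2, Pax3 and, per list and direction, up to 3 called genes with the smallest p (those whose call was lost under an alternative are mostly left out of the text), and, for Cavin2 and Pacsin1, the 5 genes most alike; 15 list genes had no entry. The differences between the sorts' plasmid-label differences of Cavin2 and Pacsin1 contain values the families were chosen by and were left untested. The GFP-label differences of these genes contain such values too. They stayed in the fit and in the counts of members, and their p-values are not printed. Marker genes of other cell types were named after their values were seen. Positions come from GENCODE M21 (GRCm38), which matched 23550 identifiers (99.8%).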

Additional observations from a re-analysis of the deposited data

How the results depend on the processing

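The 16 called differences of members kept their direction in 352 alternative values and their call in 340; 12 of them were kept in every alternative. The 5 plasmid-label differences given without a test, those between the sorts among them, kept their direction in all 108. The GFP-label differences of Cavin2 and Pacsin1, which also contain values of the choice, are counted with the uncalled. Among the 29 that were not called, 9 values passed and 4 changed sign: without GFP-positive control replicate 2 the GFP-positive plasmid-label difference of Cavin1 was 0.05 (range −0.19 to 0.05), in SIX2-labelled libraries the GFP-label difference of Cavin2 ranged from −0.27 to 0.08 and reached 0.02 without GFP-negative SIX2 replicate 2, and that of Pacsin1 ranged from −0.49 to 0.04. The cause was not tested.

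Members called for the GFP label in controls numbered 2, but 1 with no filter, 1 with a replicate block, 4 by DESeq2 and 0 to 3 without single libraries. Cavin2, whose GFP-negative control values the choice used, is among the 4. In SIX2-labelled libraries 0 were called and DESeq2 called 2. For the difference between the sorts 0 were called, DESeq2 called 1, and single-library omissions gave 0 to 1.

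Over all genes, the controls' GFP-label count was 507, 298 with a replicate block, 1087 by DESeq2 and 68 to 820 without single libraries. The SIX2-labelled count was 28, 292 by DESeq2 and 13 to 60. The count for the difference between the sorts was 0 (2437 at an unadjusted p under 0.05), 562 by DESeq2 and 0 to 171, the highest without GFP-positive control replicate 3. Plasmid-label counts were 4075 (2989 to 4302) and 3394 (2522 to 3494).

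With a replicate block the plasmid-label counts were 3740 and 3153; the correlation of same-numbered libraries' deviations, −0.203 to 0.053, gave no pairing. Among the members, depth limits Pacsin1 most, with 23 reads in its lowest library. Depth also limits Six2 and Pax3, each with only 2 reads in its lowest library.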

Other observations

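The genes whose levels over the 12 libraries were most like those of Cavin2, by root mean square difference of log2 values centred on each gene's mean, were Pcp4l1 (0.36), Tmeff2 (0.39), Akap12 (0.41), Gria3 (0.43) and Serpine2 (0.48). Akap12, a scaffold for kinase A, averaged 134 ± 64.6 and 184 ± 36.1 in the GFP-negative and GFP-positive controls and 527 ± 28.1 and 593 ± 73.4 in the matching SIX2 libraries. Those most like Pacsin1 were Gdf5 (0.26), Cilp2 (0.46), Mss51 (0.50), Prr32 (0.51) and Gipc3 (0.53). Gdf5, a secreted BMP-like signal, averaged 1156 ± 110.5 and 1082 ± 50.9 in controls and 135.5 ± 41.4 and 136 ± 22.6 in SIX2 libraries. Among the members themselves the closest were Cavin4 and Pacsin3 (0.08), Cav3 with Pacsin2 and with Pacsin3 (0.14 each) and Cav1 with Cav2 (0.20). These are descriptions over libraries of 4 groups, chosen for likeness.

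Membrane repair and T-tubule genes, 17 of 17 tested, moved both ways with the SIX2 label. In the GFP-negative sort 5 rose and 6 fell, and 3 rose and 7 fell in the GFP-positive sort. Over all genes, 27.9% and 23.3% were called, which also stands beside the cholesterol genes below. Anxa5, a calcium-dependent repair annexin, rose by 0.82 ± 0.07 (limma adjusted p = 5.55e-06) and 1.07 ± 0.07 (limma adjusted p = 9.17e-07). Anxa1 rose by 1.02 and 0.77 (limma adjusted p = 1.39e-05 and 0.000131). Capn3, the muscle calpain, fell by 1.23 and 0.87 (limma adjusted p = 1.89e-06 and 1.71e-05), and Bin1, the T-tubule amphiphysin, fell by 0.47 and 0.36 (limma adjusted p = 8.9e-05 and 0.000712). Of 20 cholesterol genes, 2 rose and 3 fell in the GFP-negative sort, and 2 rose and 4 fell in the GFP-positive sort; Dhcr7, the last enzyme of the pathway, fell by 0.84 and 0.55 (limma adjusted p = 2.48e-05 and 0.000632), and Stard4, a sterol carrier, rose by 0.96 and 0.73 (limma adjusted p = 0.00113 and 0.00799). Lss, another enzyme of the pathway, rose by 0.40 and 0.72 (limma adjusted p = 0.0489 and 0.00261), the first of which was lost in 10 of 22 alternatives.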
